A study of Macaca mulatta with 136 samples.

Results

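Vascular endothelial growth factor (VEGF) signalling in the macaque eye was followed through 9 genes chosen by name: the 4 ligands VEGFA, VEGFB, VEGFC and PGF, the 3 receptor tyrosine kinases FLT1, KDR and FLT4, and the 2 neuropilin co-receptors NRP1 and NRP2. Each matched 1 of the 19422 gene IDs in the deposited tables by its symbol, and all 9 passed the filter on low counts in every comparison. The rule itself used the names alone.

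VEGF ligands are secreted dimers that guide vessel growth, vessel survival and permeability. VEGFA binds FLT1 and KDR, VEGFB and PGF bind FLT1, and VEGFC binds FLT4 and, after processing, KDR. KDR carries most of the growth and permeability signal in blood vessel endothelium, FLT1 binds VEGFA tightly and can act as a decoy, and FLT4 is best known from lymphatic endothelium and from fenestrated or sprouting vessels. The neuropilins bind VEGF as co-receptors and also bind class 3 semaphorins, which are axon and vessel guidance factors. In the eye the retinal pigment epithelium (RPE) secretes VEGFA toward the choriocapillaris, the fenestrated capillary bed below it, while the inner retina has its own vessels and the centre of the fovea has none.

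The libraries came from postmortem eyes of 2 adult rhesus macaques, named RM03 and RM04, of 13 and 18 years, with no treatment; the sources used here do not say which animal had which age. Punches 2 mm across were taken from the right and the left eye of each animal from foveal/macular, perimacular, nasal and peripheral locations, and each was split into neural retina and RPE/choroid. The libraries labelled periphery are from punches that the protocol calls temporal. This gave 32 libraries, with 4 eyes for each of 8 groups of tissue and location. Their lane files summed to 42448891 to 78574034 estimated counts per library. The eyes of an animal are not independent animals. The p-values here therefore describe the spread over the libraries of each fit after a term for the animal, not over macaques at large. In fits of both tissues the tissues share that term, so an animal difference in only one tissue stays in the spread.

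Levels are given as CPM (a gene's estimated counts relative to the library's total), scaled by trimmed mean of M values (TMM) factors. Where 4 values are listed, they stand in the order RM03 right eye, RM03 left eye, RM04 right eye, RM04 left eye. The CPM of a gene was not divided by transcript length, so a gene's levels were compared between samples and never with those of another gene. In bulk punches, fewer cells of a type and less RNA per cell cannot be told apart.

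Marker genes were checked against the tissue labels. RPE65, the isomerase of the visual cycle in RPE, lay between 482 and 8596 CPM in RPE/choroid and between 52.2 and 219 CPM in retina, and SAG, the arrestin of rods, between 1223 and 11942 CPM in retina and between 6.22 and 395 CPM in RPE/choroid. The endothelial markers PECAM1 and CDH5 had group means of 154 to 452 CPM and 184 to 300 CPM in RPE/choroid against 9.21 to 13.7 CPM and 4.65 to 7.46 CPM in retina. RBPMS, used as a ganglion cell marker, was not particular to the retina, with group means of 81.4 to 212 CPM in RPE/choroid. The RPE/choroid libraries of the RM03 right eye at the perimacula and of the RM03 left and right eyes at the periphery stood apart, with 9241, 13584 and 4646 CPM summed over 4 Schwann cell markers against 283 to 2179 CPM in the other 13. The peripheral libraries were sequenced on a flow cell of their own, with 2 lanes each where the other libraries had 5 lanes on 2 flow cells. For the periphery, location and flow cell therefore cannot be told apart.

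VEGFC, PGF, FLT4, NRP1 and NRP2 had group means of 16.4 to 446 CPM in RPE/choroid and 0.852 to 17.6 CPM in retina. VEGFB and FLT1 were also higher in RPE/choroid. VEGFA had group means of 137 to 348 CPM in RPE/choroid and 136 to 201 CPM in retina. KDR was higher in retina outside the fovea/macula. By location, VEGFA and FLT1 had their highest mean at the fovea/macula in both tissues. The tissues went opposite ways for KDR, which was higher at the periphery than at the fovea/macula in retina and lower in RPE/choroid.

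**Figure D1:**
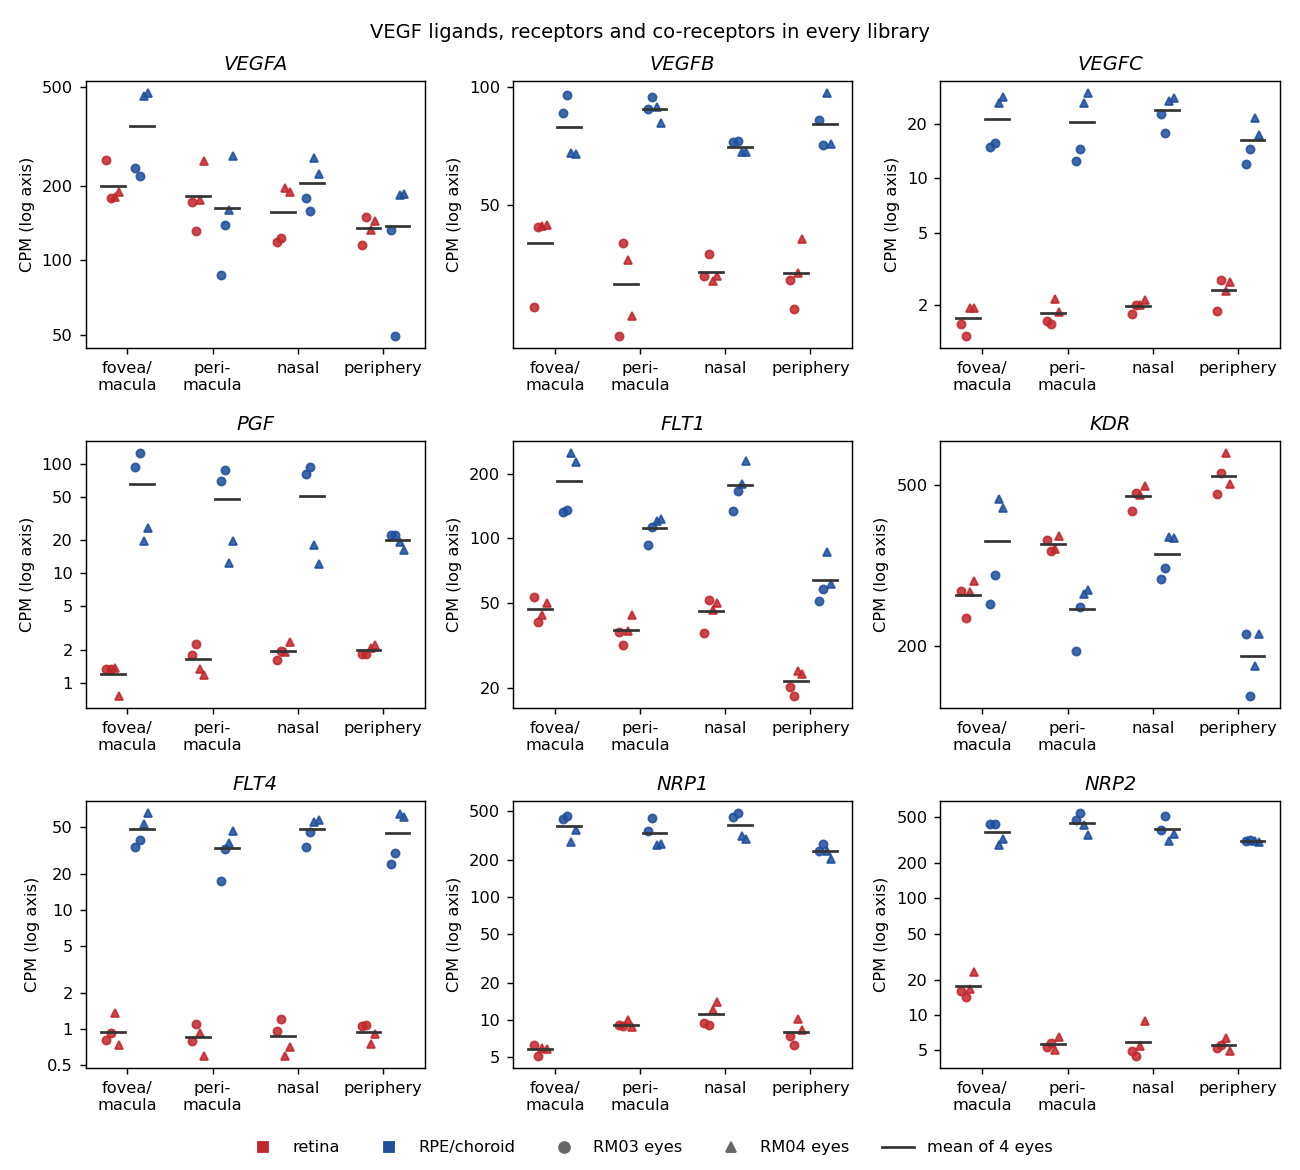
CPM of the 9 genes on a log axis, by location, in retina (red) and RPE/choroid (blue). Each point is 1 library (circles RM03 eyes, triangles RM04 eyes) and each bar the mean of 4 eyes; KDR has foveal/macular and peripheral means of 267 and 528 CPM in retina and of 364 and 189 CPM in RPE/choroid.

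The first question was whether the fovea/macula differs from the other locations within the retina. Of the 9 genes, 4 passed the threshold (edgeR quasi-likelihood test, Benjamini-Hochberg adjusted p below 0.05 over all genes tested) against the perimacula, where 35.2% of all genes did. FLT1 and NRP2 were higher and KDR and NRP1 lower at the fovea/macula. Against the nasal location 4 passed, against 52.2% of all genes, with NRP2 higher and PGF, KDR and NRP1 lower. Against the periphery 7 passed, against 67.0% of all genes: VEGFA, FLT1 and NRP2 were higher, and VEGFC, PGF, KDR and NRP1 were lower. The shares of the 9 were close to those of all genes in each case, so the count itself does not set this family apart in the retina. The median log2 fold changes of the 9 were 0.20, 0.07 and 0.08 against the perimacula, nasal location and periphery, beside 0.01, -0.04 and -0.06 over all genes tested. Ranges over the 4 eyes did not overlap for 3, 4 and 5 of the 9 in these comparisons. Over 16382 genes the shares without overlap were 27.8%, 41.9% and 51.1%.

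In RPE/choroid the same question gave 5 calls against the periphery, where 44.1% of all genes passed. VEGFA, PGF, FLT1, KDR and NRP1 were all higher at the fovea/macula, and none of the 9 was lower. None passed against the perimacula or the nasal location in the edgeR quasi-likelihood test, where 0.0447% and 0.361% of all genes did, with 1678 and 2449 genes at an unadjusted p below 0.05. With DESeq2, VEGFA, FLT1 and KDR passed against the perimacula and none of the 9 against the nasal location. The median log2 fold change of the 9 against the periphery was 0.64, beside -0.06 over all genes tested. Ranges did not overlap for 1, 0 and 4 of the 9 against the perimacula, nasal location and periphery. Over 16382 genes the shares without overlap were 5.87%, 6.73% and 30%.

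Of the ligands, VEGFA, the main growth factor for ocular vessels, was higher at the fovea/macula than at the periphery in both tissues. In retina it measured 254, 179, 180.5 and 189 CPM at the fovea/macula and 116, 149, 133 and 144 CPM at the periphery. All 4 foveal/macular values lay above all peripheral ones, by 0.26 to 1.13 on the log2 scale in single eyes. The fitted log2 fold change was 0.62 ± 0.18 (SE; adjusted p = 0.0098, edgeR quasi-likelihood test), and it was 0.43 with an adjusted p of 0.071 without the RM03 right eye, whose foveal/macular library was the highest. The perimacular and nasal values, 131 to 252 and 118 to 197 CPM, overlapped with the neighbouring locations. The foveal/macular excess over the nasal location, 0.43 ± 0.18, missed the threshold in edgeR (adjusted p = 0.056) and passed with DESeq2 (0.46, adjusted p = 0.029), with 2 of 4 eyes in that direction.

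In RPE/choroid, VEGFA measured 237, 219, 463 and 474 CPM at the fovea/macula and 133, 49.5, 183 and 185 CPM at the periphery. Both eyes of RM04 were above both eyes of RM03 at each of the 4 locations, and every foveal/macular library was above every peripheral one. The fitted difference was 1.32 ± 0.28 (SE; adjusted p = 0.0029, edgeR quasi-likelihood test), and it was 1.10 without the 2 libraries highest in Schwann cell markers and 1.26 without the 3 highest. The difference against the perimacula, 1.08 ± 0.27, was found in 4 of 4 eyes and did not pass (adjusted p = 0.20, edgeR quasi-likelihood test). The test of whether the fovea-to-periphery difference of VEGFA differed between the tissues gave 0.70 ± 0.42 (SE; adjusted p = 0.20, edgeR quasi-likelihood test), so it was not shown to differ.

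VEGFB, a ligand of FLT1 linked to fatty acid handling and cell survival, had no location difference that passed in either tissue. Its group means ran from 31.3 to 39.9 CPM in retina and from 70.5 to 88.1 CPM in RPE/choroid. In retina the foveal/macular level was 1.32-fold the perimacular one, in 4 of 4 eyes (adjusted p = 0.12, edgeR quasi-likelihood test). The difference against the nasal location was 0.27 ± 0.19 (adjusted p = 0.24, edgeR quasi-likelihood test), and it was 0.46 with an adjusted p of 0.047 without the RM03 right eye, whose foveal/macular library had 27.5 CPM against 43.8 to 44.3 CPM in the other 3.

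VEGFC, the FLT4 ligand of lymphatic growth, was near 2 CPM throughout the retina, with means of 1.70, 1.81, 1.98 and 2.44 CPM for foveal/macular, perimacular, nasal and peripheral libraries. It was lower at the fovea/macula than at the periphery in 4 of 4 eyes, by 0.48 ± 0.16 on the log2 scale (SE; adjusted p = 0.018, edgeR quasi-likelihood test), although the ranges overlapped. The call was lost without the RM03 left eye (-0.30, adjusted p = 0.12), without the RM04 left eye (adjusted p = 0.060), with no term for the animal (adjusted p = 0.056) and from 1 flow cell (adjusted p = 0.068). In RPE/choroid its mean was 21.2 ± 6.83 CPM (SD, n = 4) at the fovea/macula and 16.4 ± 4.10 CPM at the periphery, with a fitted difference of 0.33 ± 0.12 that narrowly missed the threshold (adjusted p = 0.054, edgeR quasi-likelihood test). Without the 2 libraries highest in Schwann cell markers that difference was 0.41, with an adjusted p of 0.014. Both RM04 eyes were above both RM03 eyes at all 4 locations of RPE/choroid.

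PGF, placental growth factor, separated the animals in RPE/choroid. Foveal/macular libraries measured 93.0, 124, 19.5 and 25.8 CPM and perimacular ones 69.1, 87.0, 12.3 and 19.8 CPM. Nasal libraries measured 80.2, 93.0, 18.3 and 12.1 CPM and peripheral ones 22.4, 22.4, 19.2 and 16.2 CPM. The RM03 eyes were 4.79, 4.85 and 5.70 times the RM04 eyes on average at the first 3 locations and 1.27 times at the periphery. With 2 animals this is a description of these animals, and it carries no test.

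The fovea-to-periphery difference of PGF in RPE/choroid was accordingly uneven between eyes, at 2.05, 2.47, 0.02 and 0.67 on the log2 scale. The fit with the animal as a term gave 1.202 ± 0.39 (SE; adjusted p = 0.027, edgeR quasi-likelihood test). It was 1.18 with an adjusted p of 0.0502 when each eye was its own block, 0.92 with an adjusted p of 0.099 without the 2 libraries highest in Schwann cell markers, and 0.31 with an adjusted p of 0.32 without the 3 highest, which leaves only RM04 at the periphery. Leaving out the RM03 right, RM03 left or RM04 left eye gave 0.94, 0.83 and 1.41, with adjusted p-values of 0.14, 0.12 and 0.073. In retina PGF was low and ran the other way, with 1.33, 1.36, 1.38 and 0.762 CPM at the fovea/macula and 1.86, 1.84, 2.11 and 2.21 CPM at the periphery, a difference of -0.70 ± 0.23 (SE; adjusted p = 0.017, edgeR quasi-likelihood test). That call was lost from 1 flow cell (-0.61, adjusted p = 0.055), without the RM03 right eye (-0.76, adjusted p = 0.053) and without the RM04 left eye, which held the lowest foveal/macular value (-0.46, adjusted p = 0.10). The nasal comparison, -0.68 ± 0.23 (adjusted p = 0.020, edgeR quasi-likelihood test), was likewise lost without the RM04 left eye (-0.40, adjusted p = 0.14), without the RM04 right eye (-0.78, adjusted p = 0.052), with 2 lanes per library (-0.50, adjusted p = 0.099) and from 1 flow cell (-0.47, adjusted p = 0.15).

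Of the receptors, FLT1, the high-affinity VEGFA receptor, was higher at the fovea/macula than at the periphery in both tissues. In retina it measured 53.5, 40.8, 43.9 and 49.97 CPM at the fovea/macula and 20.2, 18.3, 23.95 and 23.2 CPM at the periphery. The groups did not overlap, and the fitted change was 2.29-fold (log2 1.196 ± 0.11 SE; adjusted p = 2.0e-06, edgeR quasi-likelihood test). The nasal mean of 46.0 CPM was close to the foveal/macular mean of 47.0 CPM, and the perimacular mean was 37.2 CPM. The foveal/macular excess over the perimacula, 0.40 ± 0.11 (adjusted p = 0.015, edgeR quasi-likelihood test), was 0.26 with an adjusted p of 0.23 when 2 lanes per library were counted, 0.25 with an adjusted p of 0.23 from 1 flow cell, and 0.30 with an adjusted p of 0.071 without the RM03 right eye.

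FLT1 in RPE/choroid measured 132, 136, 250.5 and 227 CPM at the fovea/macula and 50.7, 58.3, 86.3 and 61.5 CPM at the periphery. All foveal/macular libraries were above all peripheral ones, with a fitted change of 2.83-fold (log2 1.499 ± 0.14 SE; adjusted p = 2.1e-05, edgeR quasi-likelihood test). The nasal mean, 178 ± 40.0 CPM, was again near the foveal/macular mean of 187 ± 61.03 CPM (SD, n = 4), and the perimacular libraries, at 93.7 to 123 CPM, lay below all of the foveal/macular ones without passing the test (adjusted p = 0.14, edgeR quasi-likelihood test). The change of FLT1 from fovea/macula to periphery differed between the tissues by 0.33 ± 0.20 (adjusted p = 0.20, edgeR quasi-likelihood test).

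KDR, the main signalling receptor of VEGFA, differed in opposite directions between fovea/macula and periphery in the 2 tissues. In retina the foveal/macular libraries measured 273, 235, 271 and 289 CPM and the perimacular ones 365, 344, 348 and 374 CPM. The nasal ones measured 430.4, 478, 473 and 498 CPM and the peripheral ones 475, 534, 599.5 and 504 CPM. Foveal/macular, perimacular and nasal libraries fell into ranges that did not overlap, and only the nasal and peripheral ranges met. KDR at the fovea/macula was lower by 0.37 ± 0.08 than at the perimacula, by 0.78 ± 0.07 than at the nasal location and by 0.93 ± 0.08 than at the periphery on the log2 scale (SE; adjusted p = 0.0049, 7.5e-07 and 1.3e-06, edgeR quasi-likelihood test). The largest of these corresponds to a peripheral level 1.91-fold that of the fovea/macula, with the same direction in 4 of 4 eyes.

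In RPE/choroid KDR measured 254, 299.9, 463 and 438 CPM at the fovea/macula and 213, 150.2, 178 and 214 CPM at the periphery. Every foveal/macular library was above every peripheral one, and RM04 was above RM03 at the fovea/macula, perimacula and nasal location. The fitted foveal/macular excess over the periphery was 0.90 ± 0.16 (SE; adjusted p = 0.0010, edgeR quasi-likelihood test), found in 4 of 4 eyes. Perimacular and nasal means were 247 and 337 CPM. The foveal/macular excess over these 2 locations, 0.54 ± 0.16 and 0.09 ± 0.14, did not pass (adjusted p = 0.27 and 0.81, edgeR quasi-likelihood test). The tissue-by-location term, the difference of the foveal/macular excess in RPE/choroid from that in retina, was 0.95 ± 0.20 against the perimacula, 0.91 ± 0.17 against the nasal location and 1.86 ± 0.20 against the periphery (adjusted p = 0.0046, 0.00031 and 7.8e-07, edgeR quasi-likelihood test).

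FLT4, the VEGFC receptor, was near the limit of the retina libraries, with 0.590 to 1.35 CPM in single libraries and no location difference that passed. In RPE/choroid its group means were 47.9, 33.4, 48.0 and 45.0 CPM, in the order foveal/macular, perimacular, nasal and peripheral. No location comparison passed there either. The RM04 eyes were above the RM03 eyes at all 4 locations, most at the periphery, where they measured 64.7 and 60.6 CPM against 24.4 and 30.4 CPM. The 4 lymphatic endothelial markers summed to group means of 233 to 311 CPM in RPE/choroid and 45.6 to 70.3 CPM in retina. Depending on the location, 2 or 3 of them were higher and 1 lower in RPE/choroid, where 74.3% to 76.2% of all genes passed. Named after their values were seen, LYVE1 had group means of 5.13 to 13.5 CPM in RPE/choroid and 0.195 to 0.362 CPM in retina, and PROX1, which retinal interneurons also express, 0.414 to 0.648 CPM and 24.97 to 37.9 CPM. Their part in the FLT4 levels was not tested.

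**Figure D2:**
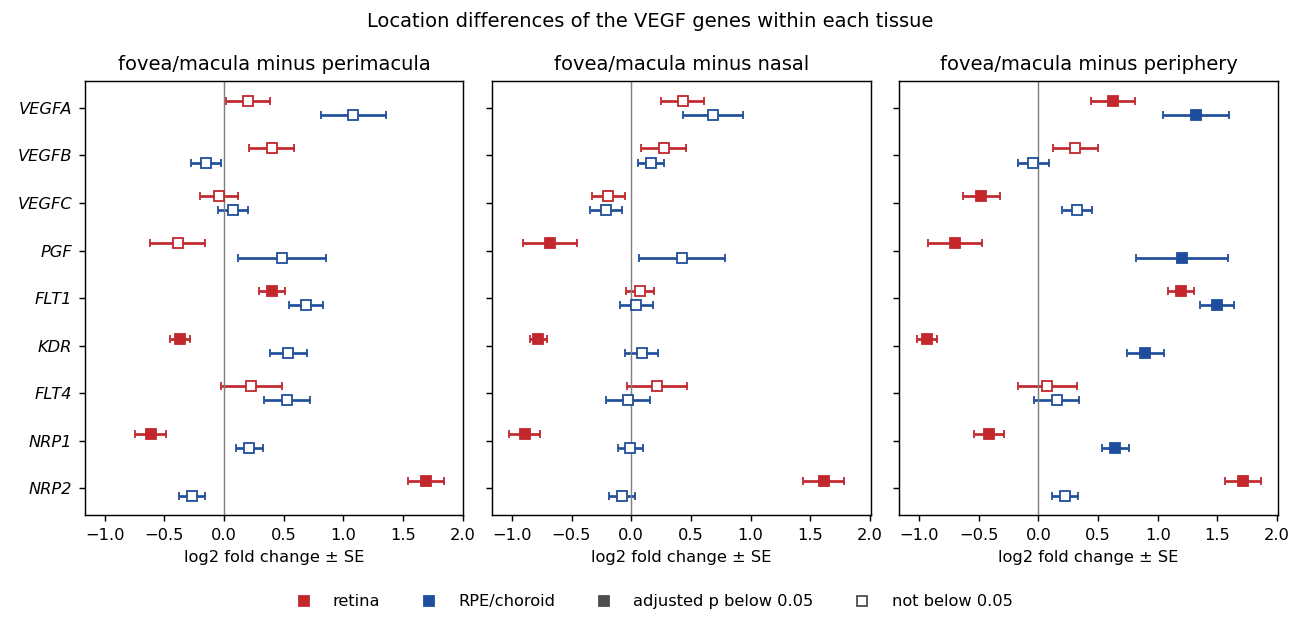
Fitted log2 fold changes with standard errors of the 9 genes for the fovea/macula against each other location, in retina (red) and RPE/choroid (blue). Filled symbols passed the threshold; against the periphery, KDR, NRP1 and PGF passed on opposite sides of 0 in the 2 tissues, and NRP2 is higher at the fovea/macula by 1.71 in retina.

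The co-receptors behaved unlike each other in retina. NRP2 measured 16.1, 14.2, 16.8 and 23.3 CPM in the foveal/macular libraries and 5.31, 5.73, 4.99 and 6.47 CPM in the perimacular ones. Nasally it measured 4.95, 4.46, 5.40 and 9.001 CPM, and peripherally 5.25, 5.56, 6.42 and 4.92 CPM. The foveal/macular libraries were all above the other 12, which shared 1 range. NRP2 was thus 3.23-fold, 3.06-fold and 3.28-fold higher at the fovea/macula than at the perimacula, nasal location and periphery (adjusted p = 2.4e-05, 3.1e-06 and 1.1e-06, edgeR quasi-likelihood test). These were the largest location differences among the 9 genes in retina, and they passed under every alternative run.

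NRP1 in retina was lowest at the fovea/macula, with 6.30, 5.08, 5.93 and 5.77 CPM, and highest at the nasal location, with 9.44, 9.08, 11.98 and 14.03 CPM. The perimacular libraries lay at 8.74 to 10.0 CPM and the peripheral ones at 6.23 to 10.2 CPM. The foveal/macular level was lower by 0.61 ± 0.13 than the perimacular, by 0.89 ± 0.13 than the nasal and by 0.41 ± 0.13 than the peripheral level on the log2 scale (SE; adjusted p = 0.0034, 4.5e-05 and 0.013, edgeR quasi-likelihood test). The last of these had overlapping ranges and was lost without either eye of RM04 (adjusted p = 0.11 without the right eye and 0.066 without the left) and from 1 flow cell (adjusted p = 0.066).

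In RPE/choroid NRP1 measured 434, 451, 279 and 348 CPM at the fovea/macula and 237, 269, 238 and 203 CPM at the periphery. The groups did not overlap and the excess was 0.64 ± 0.12 (SE; adjusted p = 0.0011, edgeR quasi-likelihood test). NRP2 there had group means of 370.4, 446, 389 and 309 CPM in foveal/macular, perimacular, nasal and peripheral libraries, with no difference that passed. Both neuropilins were higher in both RM03 eyes than in both RM04 eyes at the fovea/macula, perimacula and nasal location and overlapped between the animals at the periphery. Among the other genes, VEGFA, VEGFC and FLT4 were higher in RM04 at all 4 locations and FLT1 likewise, so the animals differed in opposite directions for different members of the family.

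The second question was in which tissue each gene is higher. At the fovea/macula 8 of 9 genes passed, where 74.6% of all genes did, and all 8 were higher in RPE/choroid. At each of the 3 other locations 8 passed, against 75.6% (perimacula), 76.2% (nasal) and 74.3% (periphery) of all genes, with 7 higher in RPE/choroid and KDR lower. VEGFA passed at none of the 4 locations. The count of 8 in 9 is near the background share, and the size and direction of the differences are what distinguished the genes.

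NRP1 was 63.1-fold higher in RPE/choroid at the fovea/macula and 29.1-fold higher at the periphery. NRP2 was 20.2-fold higher at the fovea/macula and 77.7-fold, 65.0-fold and 55.8-fold higher at the perimacula, nasal location and periphery. FLT4 was 36.9-fold to 53.4-fold higher, depending on the location. In every one of these comparisons the lowest RPE/choroid library was above the highest retina library.

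VEGFC was 11.8-fold higher in RPE/choroid at the fovea/macula and 6.53-fold higher at the periphery, and PGF 43.3-fold and 9.52-fold higher. FLT1 was 3.74-fold higher at the fovea/macula and 2.97-fold higher at the periphery, and VEGFB 1.93-fold and 2.40-fold higher. For all 4 genes the tissues did not overlap at any location. Over 16382 genes, the tissues did not overlap in 68.1%, 68.5%, 70.8% and 60.2% at the fovea/macula, perimacula, nasal location and periphery. The adjusted p-values of these 7 genes ran from 4.5e-18 to 1.1e-04 over the 4 locations (edgeR quasi-likelihood test).

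KDR was the exception. It was 1.30-fold higher in RPE/choroid at the fovea/macula (log2 0.38 ± 0.14 SE; adjusted p = 0.020, edgeR quasi-likelihood test), where the tissues overlapped and 3 of 4 eyes had the direction. Without the RM03 left eye, the RM04 right eye or the RM04 left eye that call was lost (adjusted p = 0.067, 0.20 and 0.16). At the other locations KDR was higher in retina, in 4 of 4 eyes and without overlap, by 1.48-fold at the perimacula, 1.40-fold at the nasal location and 2.79-fold at the periphery (adjusted p = 0.0012, 0.00075 and 1.3e-08, edgeR quasi-likelihood test).

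VEGFA was 1.56-fold higher in RPE/choroid at the fovea/macula, in 3 of 4 eyes (log2 0.64 ± 0.30 SE; adjusted p = 0.062, edgeR quasi-likelihood test). That value passed in several alternatives, with an adjusted p of 0.021 when the nasal libraries entered the fit, 0.042 with DESeq2 and 0.011 without the 2 libraries highest in Schwann cell markers. At the perimacula, nasal location and periphery the fitted ratio was 0.85, 1.33 and 0.96, with adjusted p-values of 0.49, 0.15 and 0.86 (edgeR quasi-likelihood test). The nasal excess was in 4 of 4 eyes and passed when only the groups compared were fitted (adjusted p = 0.00098).

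**Figure D3:**
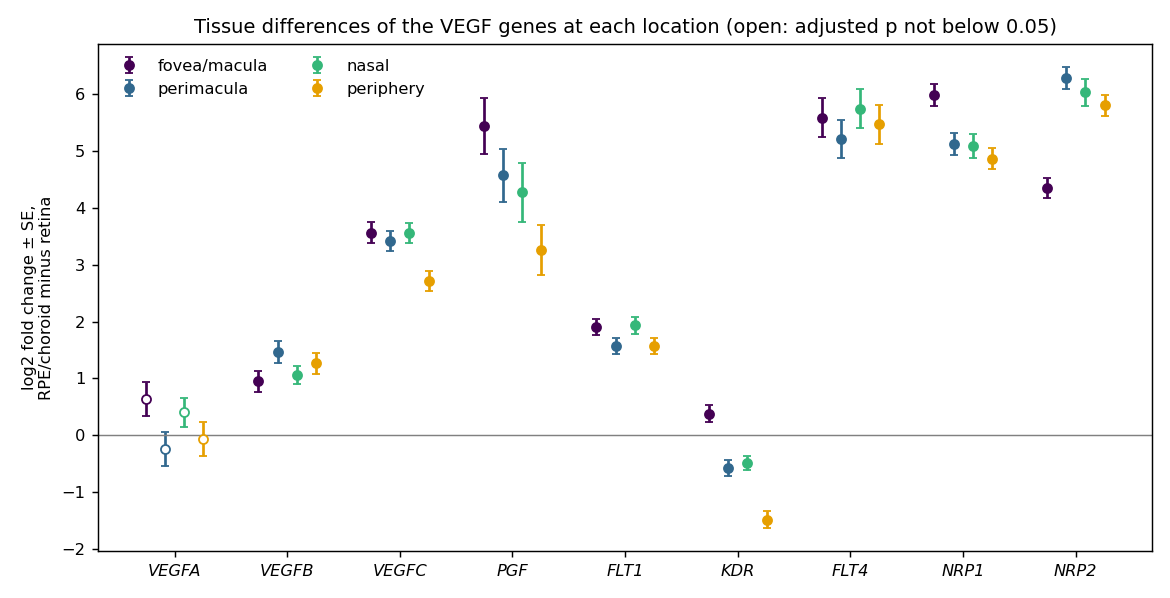
Fitted log2 fold changes of RPE/choroid over retina with standard errors for the 9 genes at each of the 4 locations. Open symbols did not pass the threshold; KDR crosses 0 between the fovea/macula (0.38) and the other locations (down to -1.48 at the periphery), and NRP2 has its smallest difference at the fovea/macula.

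Levels of RPE markers in the retina libraries are set beside these folds. The 12 RPE markers summed to 2.47% of their RPE/choroid level in foveal/macular retina, 5.50% in perimacular, 6.35% in nasal and 11.9% in peripheral retina. Of the 12, 11 were lower at the fovea/macula than at the periphery of the retina, where 67.0% of all genes passed. RPE65 alone stood at 1.09%, 2.16%, 1.97% and 4.47%. The retina level of NRP1 was 1.53%, 2.80%, 2.91% and 3.39% of its RPE/choroid level at these locations, that of PGF 1.84%, 3.54%, 3.88% and 9.98%, and that of FLT4 1.80% to 2.55%. For these 3 genes the share in retina was below that of the summed RPE markers at each location. Beside RPE65 alone, PGF was above at each location and NRP1 at all but the periphery. FLT4 was above RPE65 at the fovea/macula and perimacula and below it at the nasal location and periphery. In the same order of locations, the summed endothelial markers stood at 2.73%, 4.11%, 3.98% and 6.41%. The mural markers stood at 1.06%, 2.41%, 2.65% and 6.05%. NRP1 and FLT4 were below the endothelial share at each location, and PGF was above it at the periphery only. PGF was above the mural share at each location, and NRP1 at all but the periphery. The part of RPE/choroid RNA in the retina values was not tested. NRP2 was above the summed RPE markers at the fovea/macula, with 4.76%, and below them elsewhere, with 1.26% to 1.79%. Retina KDR exceeded the RPE/choroid level at 3 locations, reaching 279% at the periphery.

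The third question was whether the location differences themselves differed between the tissues. Against the perimacula 3 genes passed the tissue-by-location test, where 11.5% of all genes did: KDR (0.95 ± 0.20), NRP1 (0.86 ± 0.23) and NRP2 (-1.94 ± 0.22, log2 with SE). The same 3 genes passed against the nasal location, where 23.5% of all genes did. Against the periphery 5 passed, against 40.2% of all genes: PGF at 2.19 ± 0.59, KDR at 1.86 ± 0.20, NRP1 at 1.12 ± 0.23, VEGFC at 0.85 ± 0.24 and NRP2 at -1.46 ± 0.22 (adjusted p from 7.8e-07 to 0.0069, edgeR quasi-likelihood test). A positive value is a foveal/macular excess that was larger in RPE/choroid. The NRP1 term against the perimacula was lost without the RM03 right eye or either RM04 eye (adjusted p = 0.058 to 0.16) and with 1 flow cell (adjusted p = 0.093), and that of KDR without the RM04 right eye (adjusted p = 0.068). The NRP1 term against the nasal location was lost without the RM04 left eye (0.66, adjusted p = 0.17). Against the periphery, VEGFC was lost without the RM03 left eye (adjusted p = 0.0502) and with no term for the animal (adjusted p = 0.092), and PGF without the RM03 right eye (adjusted p = 0.053) and without the 3 libraries highest in Schwann cell markers (adjusted p = 0.052).

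Ratios of 2 genes within a library cancel library size and were used as descriptions, with no test. The count ratio of VEGFA to its receptor KDR in retina was 0.932, 0.762, 0.666 and 0.652 at the fovea/macula and 0.244, 0.279, 0.222 and 0.286 at the periphery. The 2 sets of values did not overlap, and the perimacular and nasal means of 0.508 and 0.332 lay between them. In RPE/choroid the same ratio had means of 0.936, 0.638, 0.607 and 0.710 at the fovea/macula, perimacula, nasal location and periphery, with peripheral libraries from 0.330 to 1.03.

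The ratio of FLT1 to KDR in retina fell from 0.176 ± 0.0144 in the foveal/macular to 0.104 ± 0.0107 in the perimacular, 0.0974 ± 0.0101 in the nasal and 0.0407 ± 0.0050 in the peripheral libraries (SD, n = 4). In RPE/choroid it was 0.509, 0.457 and 0.524 at the first 3 locations and 0.349 at the periphery. The ratio of NRP1 to NRP2 in retina was 0.337 ± 0.0623 at the fovea/macula and 1.45 to 1.93 on average elsewhere, with no overlap. In RPE/choroid it stayed between 0.614 and 1.16 in all 16 libraries.

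**Figure D4:**
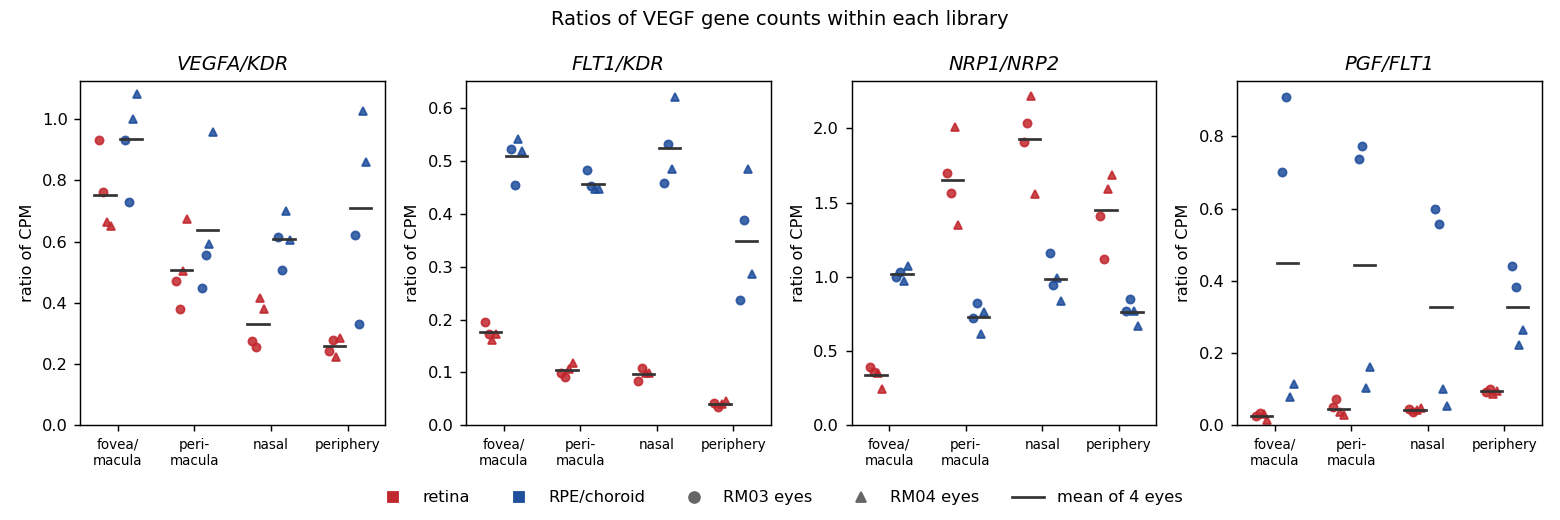
Ratios of the CPM of 2 genes within each library, by location, for VEGFA to KDR, FLT1 to KDR, NRP1 to NRP2 and PGF to FLT1, in retina (red) and RPE/choroid (blue). In retina the VEGFA to KDR ratio falls from a mean of 0.753 to 0.258 between fovea/macula and periphery, and in RPE/choroid the PGF to FLT1 ratio splits by animal (circles RM03, triangles RM04), most widely away from the periphery.

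Endothelial and other markers moved with some of these genes, and their values are given for comparison. In RPE/choroid, 12 of 14 endothelial markers were higher at the fovea/macula than at the periphery and none was lower, where 44.1% of all genes passed. Their sums were 2859 to 3888 CPM and 1602 to 2185 CPM. Of 9 mural cell markers 8 were higher, with sums of 5689 to 8622 CPM and 1012 to 2194 CPM. FLT1 and KDR correlated with the endothelial sum over the 16 RPE/choroid libraries at Pearson r of 0.91 and 0.86 and Spearman rho of 0.88 and 0.89, a description over libraries that share eyes and depth. For the other genes r was 0.78 for VEGFA, 0.63 for VEGFC, 0.53 for NRP1, 0.44 for FLT4, 0.22 for PGF, 0.17 for NRP2 and -0.19 for VEGFB. The part of endothelial content in the FLT1 and KDR differences was not tested.

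In retina, by contrast, the summed endothelial markers had their lowest mean at the fovea/macula. Their sums there were 94.8 to 102 CPM, below every nasal (111 to 142 CPM) and peripheral (105 to 142 CPM) library, while the perimacular sums were 97.9 to 135 CPM. Of the 14 markers, 3 were lower at the fovea/macula and none higher against the perimacula, where 35.2% of all genes passed. Against the nasal location 6 were lower and none higher, where 52.2% of all genes passed. Against the periphery 4 were lower and 3 higher, where 67.0% of all genes passed. The median log2 fold change of the 14 was -0.21, -0.39 and -0.02 in these comparisons, so the lower sum against the periphery was not shared across the list. PECAM1 and CDH5 had means of 9.61 and 5.09 CPM at the fovea/macula and 9.21 and 4.65 CPM at the periphery. In each comparison the share of the endothelial markers called was below that of all genes. KDR correlated with the endothelial sum at r = 0.54 and rho = 0.52 and FLT1 at r = -0.33 and rho = -0.35 over the 16 retina libraries. For the other genes r was 0.70 for PGF, 0.38 for NRP1, 0.32 for FLT4, 0.05 for VEGFC, -0.03 for VEGFB, -0.67 for NRP2 and -0.75 for VEGFA. Other cell type markers differed as well between the fovea/macula and the periphery. All 6 Mueller glia markers were lower at the fovea/macula (sums of 1244 to 1536 CPM and 3541 to 5006 CPM), as were all 9 rod markers. All 8 ganglion cell markers were higher (sums of 7828 to 8832 CPM and 375 to 812 CPM). Of the 6 Mueller glia markers, 4 were lower in RPE/choroid than in retina and 1 or 2 higher, depending on the location. Between the tissues 74.3% to 76.2% of all genes passed. The Mueller glia markers summed to 3286 to 4997 CPM in RPE/choroid. The part of any of these markers in the retinal VEGFA, FLT1, KDR and NRP2 differences was not tested.

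Lists of genes around the pathway were then counted between the fovea/macula and the periphery. Genes that encode or restrain hypoxia-inducible factor (HIF), the oxygen-regulated transcription factor that switches VEGFA on, went both ways. Of 10 in retina 4 were higher and 3 lower, and of 10 in RPE/choroid 4 were higher and 2 lower. EGLN3, a HIF prolyl hydroxylase that is itself a HIF target, had the largest rise in retina, from 9.04 ± 2.09 to 63.1 ± 2.44 CPM (SD, n = 4; log2 2.88 ± 0.22 SE). EPAS1, which encodes HIF-2 alpha, had the largest rise in RPE/choroid, from 1252 ± 96.5 to 3060 ± 279 CPM (log2 1.28 ± 0.10). HIF3A, an inhibitory family member, was lower at the fovea/macula in both tissues, by 0.94 in each.

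Targets of HIF other than VEGFA were higher at the foveal/macular retina in 9 of 13 and lower in none, with a median log2 fold change of 1.12 beside -0.06 over all genes. PFKFB3, a switch of glycolysis, was the largest, at 37.4 ± 6.49 CPM against 3.99 ± 1.87 CPM (SD, n = 4; log2 3.31 ± 0.30 SE). In RPE/choroid 1 of the 13 was higher, PFKFB3 at 1.199 ± 0.37, and 2 were lower, led by ADM, the vasodilator adrenomedullin, at -1.59 ± 0.19, with a median of -0.07. VEGFA was higher at the fovea/macula in both tissues. By the tissue-by-location test, 7 of the 13 targets had a smaller foveal/macular excess in RPE/choroid than in retina. Against the periphery 40.2% of all genes passed that test. ADM itself rose at the foveal/macular retina, by 2.32 ± 0.21, and is named in both tissues for that reason.

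Downstream signalling genes of the VEGF receptors were split, with 11 higher and 8 lower of 26 tested in retina and 9 higher and 4 lower of 27 in RPE/choroid. PRKCA, a protein kinase C isoform, had the largest deficit in retina (-1.11 ± 0.09). NOS3, the endothelial nitric oxide synthase, had the largest excess in RPE/choroid, with 124 ± 17.5 CPM against 36.4 ± 9.48 CPM (log2 1.76 ± 0.20), and MAP2K1, a kinase of the MAPK cascade, the largest deficit (-1.29 ± 0.25). Endothelial genes known to respond to VEGF were higher at the fovea/macula in 7 of 9 in RPE/choroid, with none lower, and in 6 of 9 in retina, with 2 lower.

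Of those response genes NRARP, a Notch feedback regulator, was the largest in RPE/choroid, at 9.85 ± 4.35 CPM against 1.67 ± 0.831 CPM (log2 2.47 ± 0.34). In retina APLNR, the apelin receptor, was the largest, at a mean of 0.652 CPM at the fovea/macula and 0.0375 CPM at the periphery; at so few counts its fitted change depends on the prior count and is not given. ANGPT2, the vessel-destabilizing angiopoietin, was lower at the foveal/macular retina (-0.49 ± 0.20).

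The class 3 semaphorins, which share the neuropilins with VEGF, were higher at the fovea/macula in 4 of 7 in each tissue and lower in 1. SEMA3C had the largest excess in both, with 12.1 ± 1.17 CPM against 0.562 ± 0.109 CPM in retina (log2 4.48 ± 0.29) and 83.4 ± 12.2 CPM against 28.7 ± 18.3 CPM in RPE/choroid (log2 1.57 ± 0.40). SEMA3B was lower at the foveal/macular retina (-1.33 ± 0.15) and SEMA3E at the foveal/macular RPE/choroid (-0.79 ± 0.22). Between tissues, 1 of the 7 had a larger and 4 a smaller foveal/macular excess in RPE/choroid by the tissue-by-location test, which 40.2% of all genes passed.

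The list of VEGF antagonists and matrix modulators is mixed and not made of antagonists alone. Of its genes, 5 of 8 passed the tissue-by-location test against the periphery, where 40.2% of all genes did. All 5 had the larger foveal/macular excess in RPE/choroid. In RPE/choroid 6 of 8 were higher at the fovea/macula and 1 lower, and in retina none was higher and 3 were lower. THBS1, thrombospondin, was the largest in RPE/choroid, at 264 ± 46.5 CPM against 55.1 ± 12.8 CPM (log2 2.24 ± 0.21), and SERPINF1, the anti-angiogenic factor PEDF, was lower there, at 552 ± 128 CPM against 905 ± 212 CPM (-0.74 ± 0.15). TIMP3, a matrix inhibitor that blocks VEGF binding to KDR, was lower at the foveal/macular retina (-1.37 ± 0.15). The genes named from these lists passed at an adjusted p between 1.8e-07 and 0.046 (edgeR quasi-likelihood test), and the share of all genes called is that given above for each tissue.

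**Figure D5:**
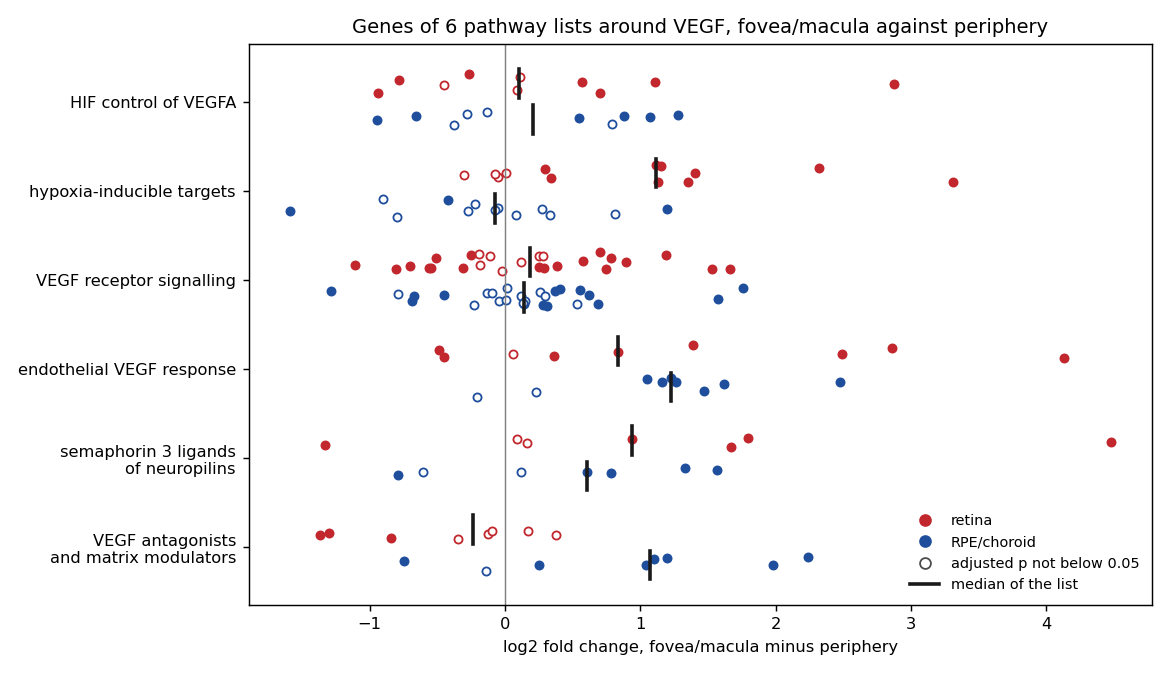
Log2 fold changes between fovea/macula and periphery for the genes of 6 lists around VEGF, in retina (red) and RPE/choroid (blue); filled points passed the threshold and the black bar is the median of a list. The hypoxia-inducible targets have a median of 1.12 in retina and -0.07 in RPE/choroid, and the mixed list of antagonists and matrix modulators -0.24 and 1.07. The retinal point of APLNR rests on peripheral counts near 0.

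VEGFD, the remaining ligand of the family, was listed at 0.326 to 1.90 CPM in all 32 libraries. No location comparison of it passed, and it was lower in RPE/choroid than in retina at the fovea/macula and the perimacula by 0.72 and 0.69 on the log2 scale (adjusted p = 0.024 and 0.028, edgeR quasi-likelihood test).

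The genes whose log2 CPM followed 4 of the family most closely were listed over the 16 libraries of each tissue, as descriptions by Pearson's r. In retina KDR went with KLHL8, CTDSP1 and DOCK1 (r = 0.98 for each), FLT1 with PLA2G6, UNC13C and IL4R (0.95, 0.93 and 0.93), VEGFA with SNX25, MED21 and CPNE3 (0.91, 0.91 and 0.88), and FLT4 with NINL, NBPF9 and MED9 (0.81, 0.80 and 0.77). In RPE/choroid FLT1 went with EMCN, MEF2A and ERG (0.96, 0.95 and 0.95), of which EMCN and ERG are endothelial markers, and VEGFA with KRT8, OSBPL10 and LHX2 (0.97, 0.96 and 0.96). KDR went with STIM2, PPP1R10 and CTBP2 (0.96, 0.94 and 0.94), and FLT4 with DYSF, EXOC3L1 and BORCS8 (0.91, 0.89 and 0.88). None of the 3 genes nearest to KDR or FLT1 in retina is on the endothelial list. That list has only 14 genes, so this does not bear on which cells express KDR or FLT1. The libraries share eyes and flow cells, and 16343 retina and 16359 RPE/choroid genes were compared.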

How the data were processed

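RNA-seq was analysed from 136 lane files of 32 libraries. Per the labels and methods, the authors quantified reads with Salmon (version 0.13 in the submitters' processing notes) on the macaque build Mmul_8.0.1 and deposited estimated counts per gene. The deposited column is headed TPM, but its values sum to 7932259 to 39439054 per lane. Of 19432 entries, 10 repeated IDs with identical values were kept once. Lanes were summed per library and rounded; depth limits precision for genes near 1 CPM. Listed genes with several entries (7 of 172 listed) or none (7) were left out.

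Counts were tested with edgeR 4.0.16 (R 4.3.3; quasi-likelihood test, TMM, filterByExpr with a minimum count of 10, animal as covariate), with Benjamini-Hochberg adjustment over all genes and a threshold of 0.05. The fits used 12 libraries of a tissue (16 against the nasal location) and 24 or 32 for tissue differences and tissue-by-location terms. Standard errors were taken from the log2 fold change and its F value. The test was tried on simulated counts. Log2 CPM used a prior count of 2. DESeq2 1.42.0, other normalizations, filters, lanes and left-out libraries were alternatives; leaving out libraries high in Schwann cell markers was added after seeing the data. Fellow eyes differed by a median of 13.3 times the counting variance, so none was a repeat deposit.

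Libraries of an eye share that eye by the labels. As the pairing check, deviations from group means had a mean correlation in retina of 0.599 for the same eye and 0.597 for the fellow eye (RPE/choroid 0.453 and 0.49), so the animal was the term and the eye an alternative.

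All 9 genes are named throughout. From each pathway list the text names the called genes with the largest change each way per tissue, and the 3 genes most alike were taken for VEGFA, FLT1, KDR and FLT4; ADM in retina was added after its value was seen. 1 gene that this rule selects is not reported here. The members and lists were chosen with earlier results of these data known.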

Additional observations from a re-analysis of the deposited data

Results flagged for a closer look

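In 4 of the 72 groups of 4 libraries, 1 per gene and group, a single eye lay far from the others in CPM; chance gives about 1 in 20. These were VEGFA in foveal/macular retina of the RM03 right eye (254 CPM), VEGFB in the same library (27.5 CPM, the lowest), VEGFB in nasal retina of the RM03 left eye (37.4 CPM, the highest) and PGF in foveal/macular retina of the RM04 left eye (0.762 CPM, the lowest).

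The location difference differed between the tissues for 5 genes in the tissue-by-location test (RPE/choroid minus retina, log2). KDR gave 0.95, 0.91 and 1.86 against the perimacula, nasal location and periphery, NRP1 0.86, 0.94 and 1.12, and NRP2 -1.94, -1.63 and -1.46. VEGFC gave 0.85 and PGF 2.19 against the periphery.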

How the results depend on the processing

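The number of the 9 genes called moved by more than 1.5 times in few settings. In RPE/choroid against the perimacula it was 0, with 3 by DESeq2 and 2 when only the groups compared were fitted; against the nasal location it was 0, with 1 when only the groups compared were fitted and 1 without the 3 libraries highest in Schwann cell markers. In retina against the periphery it was 7, with 4 from 1 flow cell per library and 4 to 6 when an eye was left out; the tissue-by-location count against the perimacula was 3, with 1 to 3 when an eye was left out. The low ends came without the RM04 left and the RM04 right eye. The cause was not tested. With each eye as a replicate block the count in RPE/choroid against the periphery was 4 in place of 5, PGF being lost, and no other call changed with the pairing. Over the log2 fold changes of the 9 genes, alternatives that left out no whole eye lost 15 calls and gained 21, and 1395 kept their side of the threshold. These alternatives include the runs without the 2 or 3 libraries highest in Schwann cell markers. With an eye left out 23 were lost, 6 gained and 439 kept it, and no called value changed direction. Levels moved by more than their SD in 2 of 144 cases, both with library totals in place of TMM factors (VEGFB nasally and NRP2 peripherally, in RPE/choroid). The 2 animals, the flow cell of the periphery and low retinal counts of PGF, VEGFC and FLT4 limit what can be said.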
